A study of Homo sapiens with 6 samples.

Results

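The genes described here are 40 genes of glycolysis and of the cellular response to low oxygen, taken by symbol from the 60675 genes in the table. They fell into 15 glycolytic enzymes, 4 transporters of glucose or lactate, 2 enzymes that set the level of fructose 2,6-bisphosphate, 4 enzymes that decide what becomes of pyruvate, 4 genes for subunits of hypoxia-inducible factor (HIF) or the hydroxylases that control it, and 11 other genes known as hypoxia targets. RNA was measured in SUM159, an established human cell line from a triple-negative breast cancer, in 3 libraries labelled control (DAPK3 wild type) and 3 labelled DAPK3 KO, all of the latter from 1 knockout line, numbered 3 in the labels. DAPK3 belongs to the death-associated protein kinases, which phosphorylate serine and threonine. Both groups were grown in Ham's F-12 medium with serum, HEPES, insulin and hydrocortisone. No label gives a difference in oxygen between the groups. The labels do not tell whether each library is its own culture. A p-value here sets a difference between groups against the spread of these libraries, which may be technical.

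Glycolysis converts glucose to pyruvate in the cytosol, and lactate dehydrogenase then reduces pyruvate to lactate, while pyruvate dehydrogenase sends it to the mitochondrion. When oxygen is short, prolyl hydroxylases stop marking the HIF alpha subunits for destruction, and HIF binds the short sequence ACGTG or GCGTG near its target genes, among them genes for most glycolytic enzymes, glucose transporter 1, VEGFA and the hydroxylases themselves. HIF1A protein is controlled mainly by this destruction, so the HIF1A transcript does not give the activity of the factor. Many cancer lines run glycolysis at a high rate with oxygen present.

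DAPK3 RNA (chromosome 19, 3958453 to 3971123, minus strand) did not follow the label in 1 control and 1 KO library. It was measured at 26.2 CPM (the count as a share of the library's scaled total) in control R1, 26.1 in control R3 and only 10.5 in control R2, each named by its label. In KO R1 and KO R3 it was 13.1 and 11.2 CPM, but 27.2 in KO R2. The labelled groups overlapped (log2 fold change −0.29 with a standard error, SE, of 0.47, edgeR adjusted p = 0.88). The first principal component of all genes, with 74.6% of the variance, separated control R1, control R3 and KO R2 from the other 3 libraries. Libraries are therefore called by their labels below, values come in the order R1, R2, R3, and the genes that the results turn on are given by label and by these 2 DAPK3 levels, the others by their range. The DAPK3 levels are not groups of the study and get no mean and no test. The libraries held 16312184 to 22970823 expected counts, and mitochondrial transcripts made up 4.52% to 7.35% of them. PGR was at 0 in every library and ESR1 at 0.186 to 0.477 CPM, for a line labelled triple-negative, with ERBB2 at 52.2 to 97.7 CPM and the epithelial genes EPCAM and CDH1 at 0 or near 0. Of 9 markers listed for the line, 5 divided the libraries by DAPK3 level: VIM (2743 to 3584 CPM where DAPK3 was high, 1425 to 1898 where it was low) and KRT8 (190 to 238 against 89.4 to 139) were higher with high DAPK3 RNA, and KRT18 (276 to 329 against 421 to 449), KRT5 (2.57 to 6.62 against 48.4 to 220) and KRT14 (0.453 to 0.618 against 5.90 to 11.2) were lower. Such a division was common, since 22.3% of all 14613 genes tested were higher and 21.3% lower in each library of high DAPK3 RNA. The summed level of the 9 markers was 3986 to 4977 CPM where DAPK3 was high and 2788 to 3527 where it was low. By label, EGFR was higher and CD44 lower in every KO library, at 468 to 518 against 302 to 395 CPM and at 304 to 421 against 433 to 526. ERBB2 was also lower in every KO library, at 52.2 to 59.4 against 67.9 to 97.7 CPM. Over all genes tested, 6.96% were higher and 6.86% lower in every KO library than in any control. The part of these differences in the results below was not tested.

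The core motif of HIF binding was looked for in the 250 bases before each RefSeq transcription start (GRCh38.p14), as ACGTG or GCGTG on either strand, where a CACGTG counts on both strands. RefSeq windows were found for 35 of the 40 genes, 65 windows in all, because 13 genes have more than 1 start, and windows of 1 gene can overlap. The motif was present in 61.5% of these windows (40 of 65), against 43.2% of all RefSeq windows (15172 of 35116). It was present in 90.9% of the windows of other hypoxia targets (10 of 11) and in 50% of those of glycolytic enzymes (17 of 34). These are counts of windows and not of genes. VEGFA, BNIP3L and NDRG1 among the other hypoxia targets had no window. Among the glycolytic enzymes, HK1 and PFKM had 7 windows each, most of them without the motif. By gene, 30 of the 35 had it in at least 1 window. The 11 sites below belong to genes whose values the results turn on. PFKFB3, PDK3, ENO2 and ADM are those with the smallest p in each direction, among genes with a match, in the test without the R2 libraries. The other 7 were added after their values were seen, because their libraries did not overlap by label, and PFKM and CA12 among them passed that test too. Each site is 30 bases on the strand of its gene. Capitals mark 1 match, read on the gene's strand as ACGTG or GCGTG or, for a match on the opposite strand, as CACGT or CACGC. Further matches can stand in lower case.
PFKFB3, chr10:6202813-6202842, plus strand: accctcctccccACGTGgaagggggctggg
PDK3, chrX:24465213-24465242, plus strand: cgcgcgccgcgtACGTGcagcaaccgactc
ENO2, chr12:6914450-6914479, plus strand: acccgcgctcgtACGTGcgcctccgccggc
ADM, chr11:10304960-10304989, plus strand: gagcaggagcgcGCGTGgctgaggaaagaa
PFKM, chr12:48105347-48105376, plus strand: agatccagagatCACGTtagggtacaccaa
PFKP, chr10:3104579-3104608, plus strand: acattctcagtgcgtggGCGTGaaccccac
PGK1, chrX:78104053-78104082, plus strand: aaacggaagccgCACGTctcactagtaccc
LDHA, chr11:18394478-18394507, plus strand: cgtgggttcccgCACGTccgccggcccccc
PDK1, chr2:172556060-172556089, plus strand: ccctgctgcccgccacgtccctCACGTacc
CA12, chr15:63382063-63382092, minus strand: gcggatctcaccCACGCctgccagcagctc
BHLHE40, chr3:4979276-4979305, plus strand: cacagggtagaaCACGTagctccaacccac
Genes with lower and with higher values in KO were among those with a match. In GENCODE release 29, 8 of the 11 sites overlap an exon of some transcript of the same gene, and those of PFKFB3, PFKP and PGK1 lie in the gene's span outside its exons. A match is a run of letters and not a measured binding site, and no binding was measured.

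Across all 6 libraries, the 40 genes covered a wide range of levels. Per kilobase of exons, GAPDH was highest, with a mean of 1360 CPM per kb (range 1230 to 1465), followed by ENO1 at 457 (303 to 579) and TPI1 at 292 (249 to 338). LDHA, PKM and LDHB followed at means of 253, 243 and 231 CPM per kb, and their ranges overlapped each other and that of TPI1. HIF1A had a mean of 110 CPM per kb, the same as PGK1. The length of a gene here is the union of all its annotated exons, so this order depends on the annotation. At the low end were EGLN3 with a mean of 0.996 CPM per kb, ADM with 0.814, CA9 with 0.557 and PDK3 with 0.345. The highest library exceeded the lowest by a median of 1.62-fold over the 40 genes, against 1.71-fold over 14423 genes above 0 in every library. Of the 40, 11 differed 2-fold or more, against 5164 of the 14423. The least variable was GAPDH, at 1.19-fold, and the most variable were PDK3 at 11.9-fold, SLC2A3 at 10.1-fold, EGLN3 at 6.33-fold and ADM at 5.61-fold. GAPDH codes for the dehydrogenase often used as a reference transcript, and SLC2A3 for glucose transporter 3. The 15 glycolytic enzymes together took 1.39%, 1.40% and 1.18% of the counts in the control libraries and 1.12%, 1.18% and 1.28% in KO, and these overlapped.

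**Figure D1:**
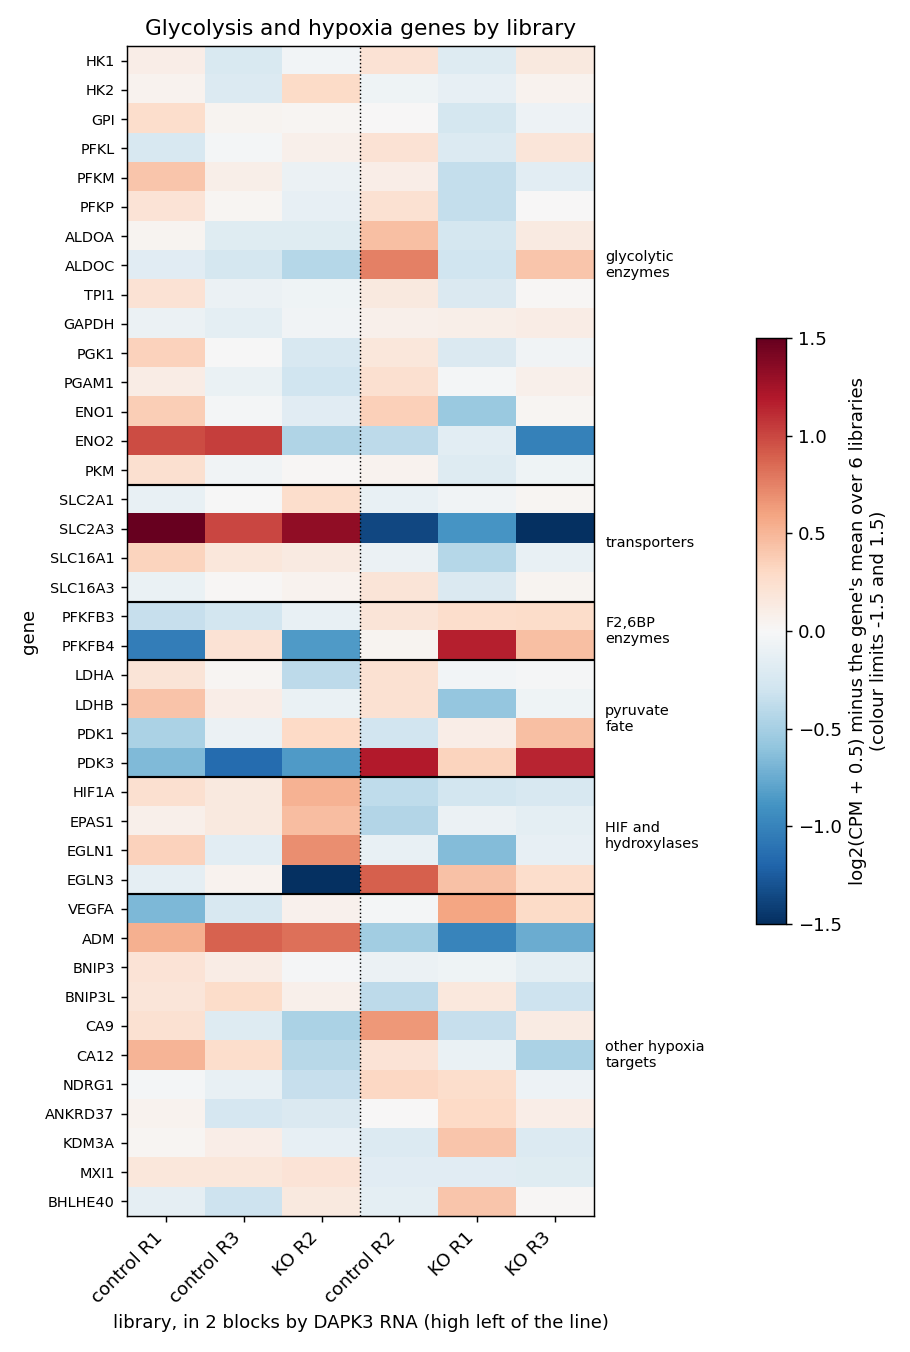
Each row is 1 of the 40 genes, grouped by role, and each column 1 library, placed by DAPK3 level with the 3 high libraries left of the dotted line. Colour gives log2(CPM + 0.5) minus the gene's mean over the 6 libraries, with red above and blue below that mean. Most glycolytic enzymes are pale, while SLC2A3, ADM and PDK3 change colour at the line and VEGFA and CA12 do not overlap between the labels.

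Set by label, 3 KO libraries against 3 control libraries, 2 phosphofructokinase subunits, phosphoglycerate kinase, both lactate dehydrogenase subunits and CA12 were lower in every KO library than in any control library, and PDK1, VEGFA and BHLHE40 were higher. None of these differences passed the test. No gene of the 40 passed edgeR's test at an adjusted p under 0.05, and the percentage called over all 14613 genes tested was 0. At an unadjusted p under 0.05, 3 of the 40 were higher in KO (7.5%, against 3.49% of all genes) and 6 lower (15%, against 4.17%), the latter being PFKM, PGK1, ENO1, ENO2, LDHB and CA12. Limma-voom called 0% of all genes and none of the 40, whereas DESeq2 called CA12, with 0.78% of all genes called. All 40 genes passed the filter on low counts in this comparison. The groups did not overlap for 3 genes higher in KO (7.5%, against 6.96% of all genes) and 6 lower in KO (15%, against 6.86%). The higher ones were PDK1, VEGFA and BHLHE40, and the lower ones PFKM, PFKP, PGK1, LDHA, LDHB and CA12. In bulk RNA, fewer cells of a kind and less RNA per cell cannot be told apart.

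**Figure D2:**
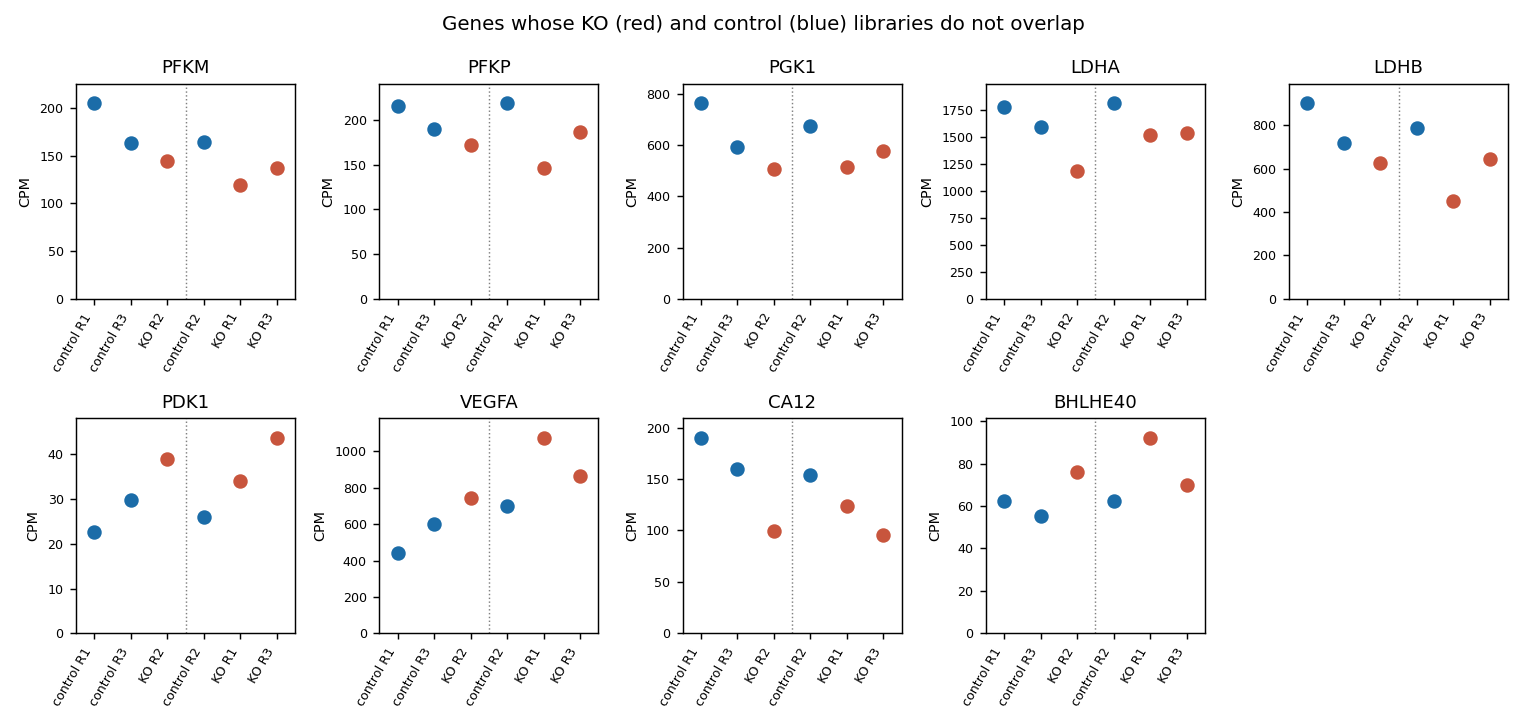
Each panel shows 1 of the 9 genes whose KO (red) and control (blue) libraries do not overlap, with CPM on a vertical axis from 0 and 1 point per library. Libraries left of the dotted line have high DAPK3 RNA. KO points lie below all control points for PFKM, PFKP, PGK1, LDHA, LDHB and CA12 and above them for PDK1, VEGFA and BHLHE40, on both sides of the line.

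Within the labels, 12 of 15 glycolytic enzymes had a negative log2 fold change, with a median of −0.21, against 7 of 11 other hypoxia targets with a median of −0.10 and 7311 of 14613 genes tested with a median of 0. The difference between the 2 lists was not tested. PFKM (chromosome 12, 48105139 to 48146404), the muscle-type subunit of phosphofructokinase, stood at 205, 164 and 163 CPM under the control label and 119, 144 and 137 under KO. The lowest control library exceeded the highest KO library, with a log2 fold change of −0.41 (standard error 0.14, edgeR adjusted p = 0.63). Its reads can mix with those of SENP1, a gene on the opposite strand whose highest count was 27.8% of that of PFKM, since the strand setting is not given in the sources used here. PFKP (chromosome 10, 3066333 to 3137712), the platelet-type subunit, was at 216, 219 and 190 CPM under the control label and 146, 172 and 187 under KO, a small gap at the closest pair of libraries (log2 fold change −0.31 with an SE of 0.13, edgeR adjusted p = 0.65). PFKL, the liver-type subunit, did not follow them, at 76.1, 104 and 87.6 CPM under the control label and 77.9, 94.3 and 102 under KO.

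PGK1 (chromosome X, 77910739 to 78129296), phosphoglycerate kinase, which makes ATP in the middle of the pathway, was at 765, 677 and 595 CPM in control. In KO it was at 514, 509 and 576 CPM, so that all KO libraries were below control R3, the lowest control (log2 fold change −0.35 with an SE of 0.13, edgeR adjusted p = 0.63). LDHA (chromosome 11, 18394388 to 18408425), the lactate dehydrogenase subunit best known as a hypoxia target, had 1774, 1813 and 1589 CPM under the control label and 1515, 1184 and 1532 under KO. KO R2 was the lowest, and the other KO libraries came close to control R3 (log2 fold change −0.29 with an SE of 0.13, edgeR adjusted p = 0.66). LDHB (chromosome 12, 21635342 to 21757857), the second subunit, had 903, 787 and 719 CPM under the control label and 449, 626 and 643 under KO (log2 fold change −0.49 with an SE of 0.17, edgeR adjusted p = 0.63). Both subunits were therefore lower in all libraries labelled KO, at either DAPK3 level.

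PDK1 and VEGFA lay on the other side. PDK1 (chromosome 2, 172555373 to 172608669), a kinase that inactivates pyruvate dehydrogenase and a known HIF target, was at 22.7, 26.0 and 29.7 CPM under the control label and 34.1, 39.0 and 43.6 under KO (log2 fold change 0.57 with an SE of 0.16, edgeR adjusted p = 0.63). VEGFA (chromosome 6, 43770184 to 43786487), the blood vessel growth factor, was at 444, 698 and 601 CPM under the control label and 1074, 744 and 866 under KO. The closest libraries were control R2 and KO R2 (log2 fold change 0.62 with an SE of 0.21, edgeR adjusted p = 0.63). BHLHE40 (chromosome 3, 4979116 to 4985323), a repressor of transcription that hypoxia induces, was at 62.6, 62.2 and 55.5 CPM under the control label and 92.1, 76.1 and 69.7 under KO (log2 fold change 0.40 with an SE of 0.14, edgeR adjusted p = 0.63). CA12 (chromosome 15, 63321378 to 63382161), a carbonic anhydrase of the cell surface that helps to handle acid, went the opposite way, at 190, 154 and 160 CPM under the control label and 124, 99.6 and 95.6 under KO. All KO libraries were below all controls (log2 fold change −0.66 with an SE of 0.15, edgeR adjusted p = 0.63).

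The DAPK3 level separated other members of the list. With control R1, control R3 and KO R2 as the libraries of high DAPK3 RNA, 8 of the 40 genes were higher in all of them than in control R2, KO R1 and KO R3 (20%, against 22.3% of all genes), and 4 were lower (10%, against 21.3%). These shares were near or below those of all genes. SLC2A3, SLC16A1, GPI, HIF1A, EPAS1, ADM, BNIP3 and MXI1 were higher where DAPK3 was high, and GAPDH, PFKFB3, PDK3 and EGLN3 were lower. No gene can be divided both ways, since control R2 and KO R2 change places between the divisions.

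**Figure D3:**
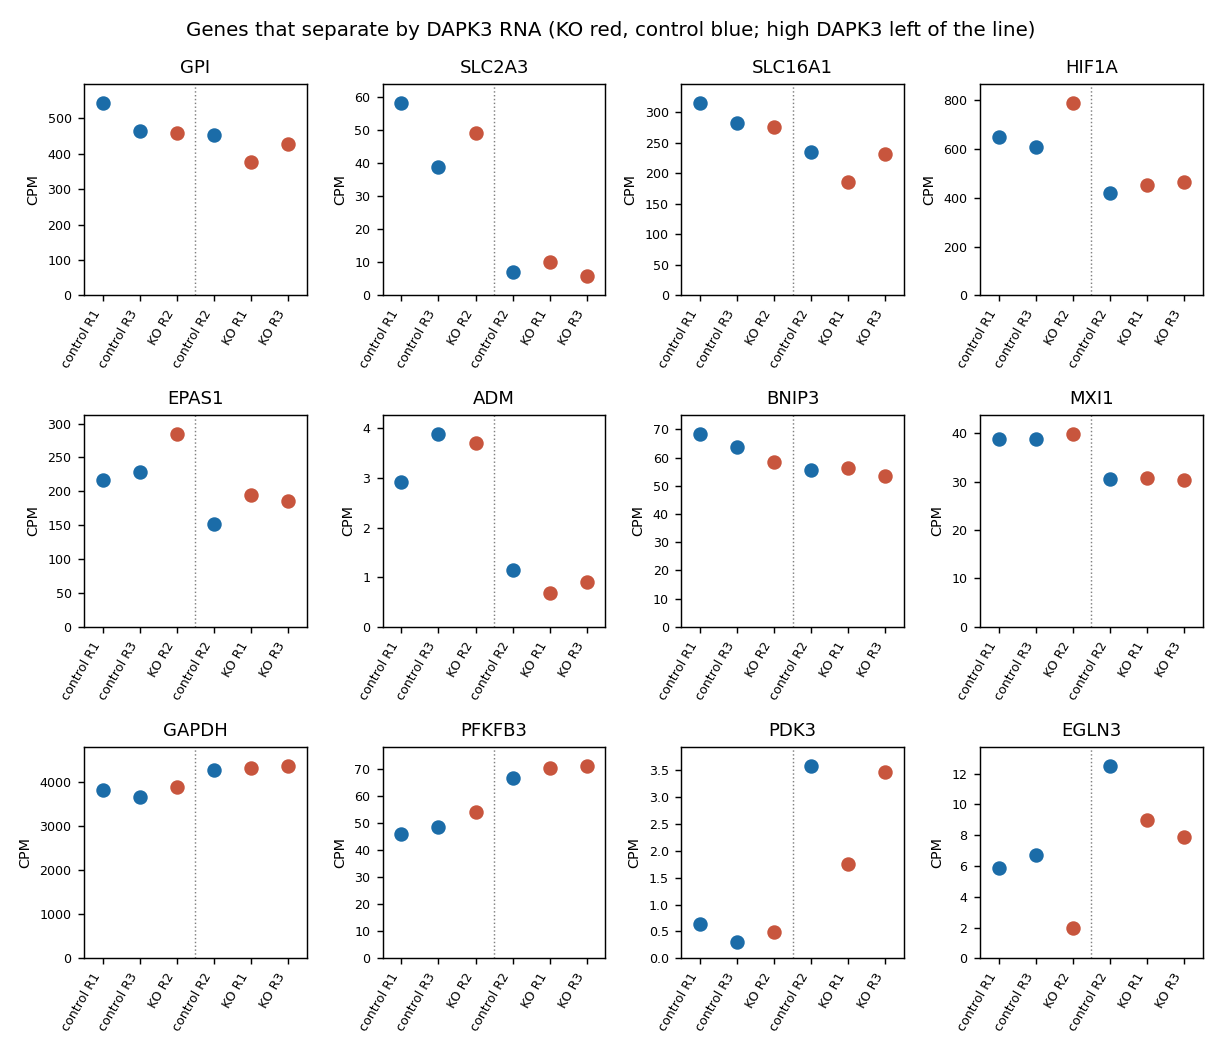
Each panel shows 1 of the 12 genes whose libraries do not overlap between the 2 DAPK3 levels, with CPM from 0 on the vertical axis and 1 point per library, red for KO and blue for control. The control R2 and KO R2 points sit with libraries of the other label. The widest gaps are those of SLC2A3, ADM and PDK3, and the narrowest those of GPI and BNIP3.

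Comparing the labels within each DAPK3 level, KO R2 with control R1 and R3, and KO R1 and R3 with control R2, gave another count. In both levels KO was lower for 15 of the 40 genes (37.5%, against 18.3% of all genes) and higher for 8 (20%, against 18.9%). The 15 held 8 of the 15 glycolytic enzymes, GPI, PFKM, PFKP, ALDOA, ALDOC, PGK1, PGAM1 and ENO1, along with SLC16A1, LDHA, LDHB, EGLN3 and 3 other hypoxia targets, CA9, CA12 and NDRG1. The 8 with higher values in KO were GAPDH, SLC2A1, PFKFB3, PDK1, HIF1A, EPAS1, VEGFA and BHLHE40. With 1 library against 2 in each level, these are counts and not tests.

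A comparison without both R2 libraries left control R1 and R3 against KO R1 and R3, the libraries whose DAPK3 RNA followed the label. DAPK3 was then lower in KO (log2 fold change −1.13 with an SE of 0.16, edgeR adjusted p = 0.0036), which the choice of libraries fixed, and label and DAPK3 level cannot be told apart in it. Of the 40 genes, 10 were called (25%), against 27.3% of all 14846 genes tested. The 3 called higher in KO, PFKFB3, PDK3 and VEGFA, were 7.5% of the list, against 12.2% of all genes, and PDK3 passed the filter on low counts only through the KO libraries, where it is high. The 7 called lower, PFKM, ENO2, SLC2A3, SLC16A1, HIF1A, ADM and CA12, were 17.5%, against 15.2% of all genes. The list as a whole was thus called about as often as all genes. Leaving out control R1 as well gave 5 of the 40 and 2543 of all genes, against 12 and 3068 without control R3, 9 and 3700 without KO R1, and 14 and 3665 without KO R3. The glycolytic enzymes had a median log2 fold change of −0.18 with 8 of 15 below 0, the other hypoxia targets one of −0.20 with 6 of 11 below 0, and all genes tested one of −0.02 with 7675 of 14846 below 0. Without control R1 these list medians were −0.01 and 0.02, with −0.01 for all genes.

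**Figure D4:**
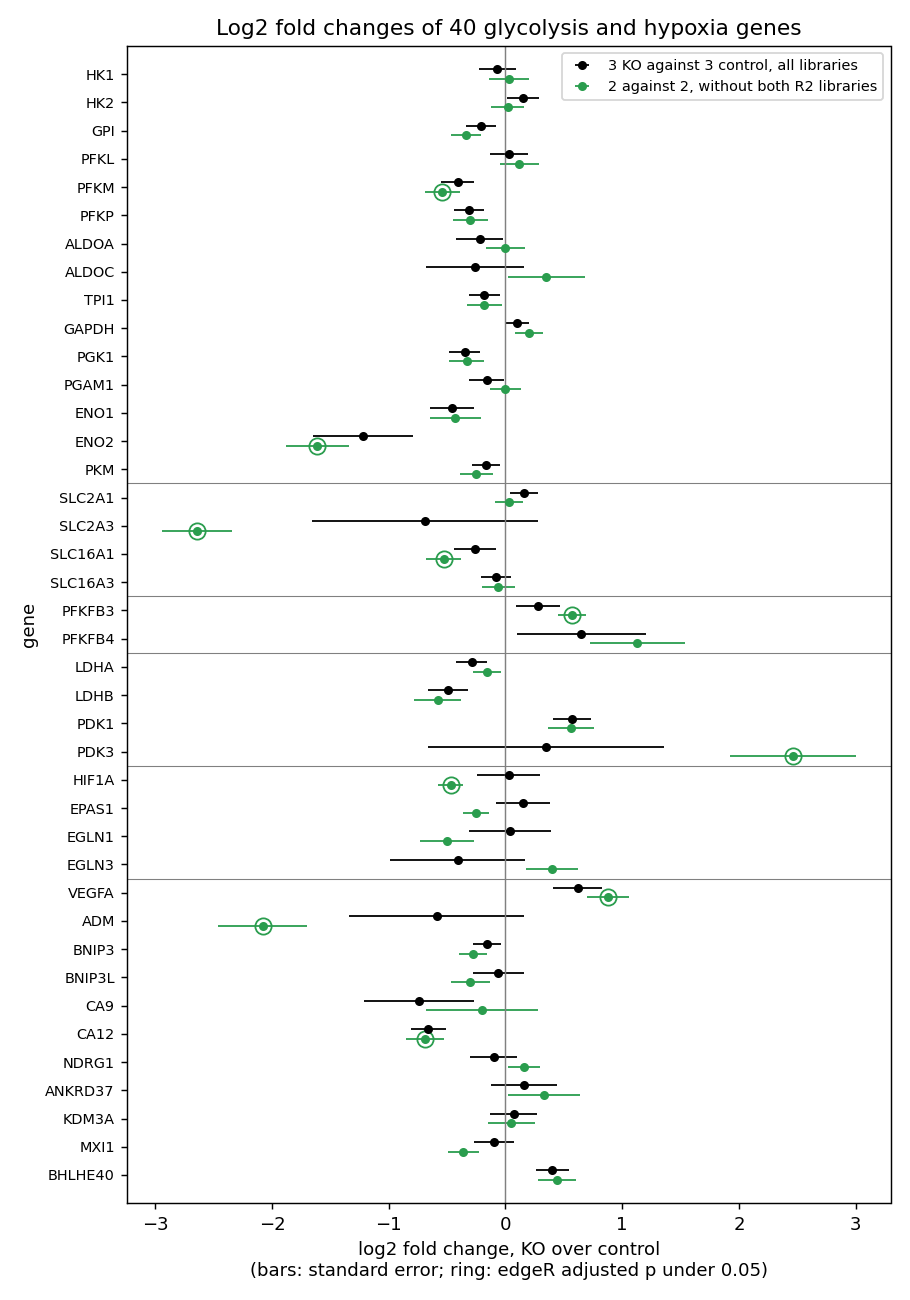
Points give the log2 fold change of KO over control for each of the 40 genes, in black for all 6 libraries and in green without both R2 libraries, with bars for the standard error. Rings mark an edgeR adjusted p under 0.05, which 10 genes reached without the R2 libraries and 0 with all 6. SLC2A3, ADM and PDK3 differ most between the 2 comparisons, and CA12, PDK1 and BHLHE40 hardly differ.

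Among the glycolytic enzymes, PFKM and ENO2 fell in the comparison without the R2 libraries. ENO2 (chromosome 12, 6913745 to 6923698), the enolase of nerve cells that is expressed here at a low level, was at 28.2, 10.6 and 29.3 CPM under the control label and 12.5, 10.1 and 6.73 under KO. It was high in control R1 and R3 alone, since KO R2, with high DAPK3 RNA, matched the low libraries (log2 fold change without R2 −1.61 with an SE of 0.27, edgeR adjusted p = 0.0067). PFKM fell by 0.54 on the log2 scale (SE 0.15, edgeR adjusted p = 0.035), and it was no longer called without control R1, without KO R1 or with no filter on low counts (−0.52). GAPDH (chromosome 12, 6533927 to 6538374), the most abundant of the list, was at 3811, 4277 and 3667 CPM under the control label and 4317, 3889 and 4368 under KO, with the 3 libraries of low DAPK3 RNA slightly above the others. Its log2 fold change without R2 was 0.20 (SE 0.12, edgeR adjusted p = 0.25). ENO1 (chromosome 1, 8861000 to 8879250), the general enolase, was at 3055, 3011 and 2315 CPM under the control label and 1600, 2095 and 2403 under KO, where KO R3 passed control R3. The log2 fold change without R2 was −0.43 (SE 0.22, edgeR adjusted p = 0.19), and without KO R3 as well it was −0.77 and called.

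The other enzymes of the pathway overlapped between the labels. HK1, the main hexokinase here, ranged from 367 to 500 CPM and HK2, the inducible hexokinase, from 112 to 158. GPI, the isomerase of the following step, was at 544, 452 and 465 CPM under the control label and 377, 460 and 428 under KO. The lowest library of high DAPK3 RNA, KO R2, was only slightly above control R2, the highest of the others. ALDOA, the main aldolase, was highest in control R2, at 698, 926 and 596 CPM under the control label and 563, 594 and 744 under KO. ALDOC, a minor aldolase at a low level, was also highest in control R2 and then KO R3, at 3.81, 7.65 and 3.52 CPM under the control label and 3.45, 3.09 and 5.95 under KO. TPI1, the triose phosphate isomerase, ranged from 671 to 912 CPM, PGAM1, the phosphoglycerate mutase, from 391 to 566, and PKM, the pyruvate kinase, from 1803 to 2448. Of the 15 enzymes, 7 had their lowest value in KO R1, while 6 had their highest in control R1 and 6 in control R2.

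Among the transporters, SLC2A3 and SLC16A1 fell without the R2 libraries, and SLC2A1 and SLC16A3 were not called. SLC2A3 (chromosome 12, 7919230 to 7936275), a high-affinity glucose transporter, was at 58.1, 7.12 and 38.8 CPM under the control label and 10.1, 49.0 and 5.73 under KO. The 3 libraries of high DAPK3 RNA stood at 38.8 CPM or more and the other 3 at 10.1 or less (log2 fold change without R2 −2.64 with an SE of 0.30, edgeR adjusted p = 0.0015). The pseudogene SLC2A3P1 is a near copy with which reads can be shared, and it had 155, 152 and 90.1 expected counts in control and 174, 143 and 131 in KO. Pseudogene rows named after SLC2A3 together reached 104% of its own row in 1 library. SLC2A3 is thus uncertain in the 3 libraries where it is low. SLC16A1 (chromosome 1, 112911847 to 112957013), monocarboxylate transporter 1, was at 315, 235 and 282 CPM under the control label and 186, 276 and 232 under KO (log2 fold change without R2 −0.53 with an SE of 0.15, edgeR adjusted p = 0.036). It was no longer called without control R1, without KO R1 or with no filter on low counts (−0.51), and an antisense gene whose highest count was 11.4% of its own overlaps it.

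SLC2A1 (chromosome 1, 42925375 to 42959176), glucose transporter 1 and a standard hypoxia target, was at 212, 211 and 227 CPM under the control label and 220, 274 and 234 under KO. KO R2 alone was high, and the log2 fold change without R2 was 0.03 (SE 0.12, edgeR adjusted p = 0.86). SLC16A3 (chromosome 17, 82228397 to 82261129), the lactate exporter monocarboxylate transporter 4, was at 63.5, 78.1 and 69.2 CPM under the control label and 58.6, 70.7 and 70.1 under KO (log2 fold change without R2 −0.06 with an SE of 0.14, edgeR adjusted p = 0.80). The highest count of CSNK1D, on the opposite strand, was 264% of that of SLC16A3, so this row may hold reads of both genes.

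Both enzymes of fructose 2,6-bisphosphate, the strongest known activator of phosphofructokinase, had positive fold changes. PFKFB3 (chromosome 10, 6144934 to 6254644), whose product mainly makes the activator, was at 46.0, 66.7 and 48.4 CPM under the control label and 70.3, 54.0 and 71.1 under KO. The libraries of low DAPK3 RNA were all above those of high, and within each DAPK3 level KO was above control. It rose without the R2 libraries (log2 fold change 0.57 with an SE of 0.12, edgeR adjusted p = 0.014), a call lost without control R1. PFKFB4 (chromosome 3, 48517684 to 48562015), a related enzyme, was at 9.58, 20.8 and 23.6 CPM under the control label and 45.8, 11 and 27.8 under KO. KO R1 was far above the other libraries, and the change without R2 was not called (log2 fold change 1.13 with an SE of 0.41, edgeR adjusted p = 0.084). It was called when control R3 or KO R3 was left out as well, at 1.92 and 1.44 on the log2 scale.

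Of the enzymes of pyruvate fate, PDK3 differed without the R2 libraries, on low counts, and the lactate dehydrogenases were not called. PDK3 (chromosome X, 24465221 to 24541862), a pyruvate dehydrogenase kinase with high activity, was at 0.635, 3.58 and 0.302 CPM under the control label and 1.75, 0.495 and 3.47 under KO. All 3 libraries of low DAPK3 RNA were above the others. These values rest on 6 to 80 counts, and PDK3 passed the filter on low counts without R2 only through KO, with 1 of 2 control libraries at or above 0.492 CPM, so its call is no support for a difference. The log2 fold change without R2 was 2.46 (SE 0.54, edgeR adjusted p = 0.017), not called without control R3 or without KO R3. LDHA and LDHB had log2 fold changes of −0.16 (SE 0.12, edgeR adjusted p = 0.38) and −0.58 (SE 0.20, edgeR adjusted p = 0.069), and LDHB was called by DESeq2 (−0.57) and when control R3 or KO R3 was left out as well.

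HIF1A and EPAS1 were divided by the DAPK3 level, as was EGLN3, while EGLN1 overlapped by level and by label. HIF1A (chromosome 14, 61695513 to 61748259), the alpha subunit of HIF-1, was at 651, 421 and 608 CPM under the control label and 453, 790 and 467 under KO. It was highest in KO R2, and the 3 libraries of low DAPK3 RNA were the lowest. It fell without R2 by 0.47 on the log2 scale (SE 0.11, edgeR adjusted p = 0.023), a call lost when any of the 4 libraries was left out. EPAS1 (chromosome 2, 46293667 to 46386703), the alpha subunit of HIF-2, was at 217, 152 and 229 CPM under the control label and 194, 284 and 186 under KO, the same division (log2 fold change without R2 −0.25 with an SE of 0.11, edgeR adjusted p = 0.15). Within each DAPK3 level both subunits were higher in KO.

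EGLN1 (chromosome 1, 231363751 to 231425044), the main HIF prolyl hydroxylase, was at 75.0, 54.2 and 52.7 CPM under the control label and 37.1, 95.5 and 54.0 under KO. KO R2 was again highest, and the labels overlapped (log2 fold change without R2 −0.50 with an SE of 0.23, edgeR adjusted p = 0.15). It was called when control R3 or KO R3 was left out as well. EGLN3, the hydroxylase most strongly induced by hypoxia, was at 5.86, 12.5 and 6.74 CPM under the control label and 8.98, 1.98 and 7.90 under KO, lowest in KO R2 and highest in control R2.

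The 11 other hypoxia targets did not move together. VEGFA rose without R2 (log2 fold change 0.88 with an SE of 0.18, edgeR adjusted p = 0.014), while ADM and CA12 fell. ADM (chromosome 11, 10304680 to 10307397), the peptide hormone adrenomedullin, was at 2.93, 1.15 and 3.88 CPM under the control label and 0.691, 3.71 and 0.912 under KO, on 13 to 77 counts. All libraries of high DAPK3 RNA were above the others (log2 fold change without R2 −2.08 with an SE of 0.38, edgeR adjusted p = 0.0084). CA12 fell by 0.69 on the log2 scale (SE 0.16, edgeR adjusted p = 0.018), not called without control R1. It was also lower in KO within both DAPK3 levels.

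BHLHE40 was not called without R2 (log2 fold change 0.44 with an SE of 0.16, edgeR adjusted p = 0.080), although it passed without KO R3. NDRG1 (chromosome 8, 133237171 to 133302022), a stress-induced gene, was at 61.8, 78.6 and 58.5 CPM under the control label and 76.0, 49.6 and 59.8 under KO (log2 fold change without R2 0.16 with an SE of 0.14, edgeR adjusted p = 0.46). BNIP3 and BNIP3L, which take part in removing mitochondria, ranged from 53.3 to 68.2 and from 42.6 to 68.3 CPM. BNIP3 was slightly higher in each library of high DAPK3 RNA, and BNIP3L overlapped. MXI1, an antagonist of MYC, divided more evenly, at 38.8 to 39.8 CPM in the libraries of high DAPK3 RNA and 30.3 to 30.7 in the others. KDM3A, a histone demethylase, ranged from 53.1 to 82.0 CPM and was highest in KO R1.

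CA9, the carbonic anhydrase often used as a hypoxia marker, was almost absent, at 1.12, 1.67 and 0.705 CPM under the control label and 0.585, 0.495 and 0.998 under KO, on 8 to 35 counts. The highest count of ARHGEF39, on the opposite strand, was 1280% of that of CA9, so the CA9 row may hold reads of that gene. ANKRD37, a hypoxia-induced gene of ankyrin repeats, ranged from 2.27 to 3.56 CPM, and the highest count of UFSP2, on the opposite strand, was 1120% of its own. Both genes are uncertain for that reason, and neither was called.

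The share of each isoenzyme within its family, from counts scaled by exon length, does not depend on the scaling between libraries. Of 15 shares in 13 families, only that of PFKL in the 3 phosphofructokinases did not overlap between labels. It was 10.5%, 14.6% and 13.8% in control and 15.8%, 16% and 16.6% in KO, or 13.0% ± 2.18 (SD, n = 3) against 16.1% ± 0.393. The difference of 3.17 percentage points had p = 0.1 in an exact two-sided permutation test, the smallest that 3 against 3 allows, and an adjusted p of 0.9 over the 15 shares. Divided by DAPK3 level, 7 shares did not overlap, those of PFKM, ALDOA, LDHA, SLC2A1, SLC16A1, PDK1 and EGLN1. Among single genes, 22.3% of all tested were higher and 21.3% lower where DAPK3 was high, and no such figure was computed for shares. The shares of PFKL, PFKM, SLC2A1 and SLC16A1 include rows whose reads can mix with those of other genes, as given above. LDHA made up 48.6%, 52.5% and 51.5% of lactate dehydrogenase in control and 61.9%, 47.6% and 53.4% in KO, highest in KO R1. The near equality in most libraries rests on the exon lengths used, 6210 bases for LDHA and 2983 for LDHB. Before this scaling LDHA had the larger expected counts in every library, for instance 36308 against 18479 in control R1. SLC2A1 made up 82.7%, 97.5% and 88.4% of the glucose transporter pair in control and 96.6%, 87.9% and 98.2% in KO. The widest range was that of PDK1 within PDK1 and PDK3, from 70.7% in control R2 to 97.0% in control R3. HK1 took 71.7% to 79.6% of the hexokinases, ENO1 98.5% to 99.7% of the enolases, and HIF1A 76.8% to 81.0% of the 2 alpha subunits.

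**Figure D5:**
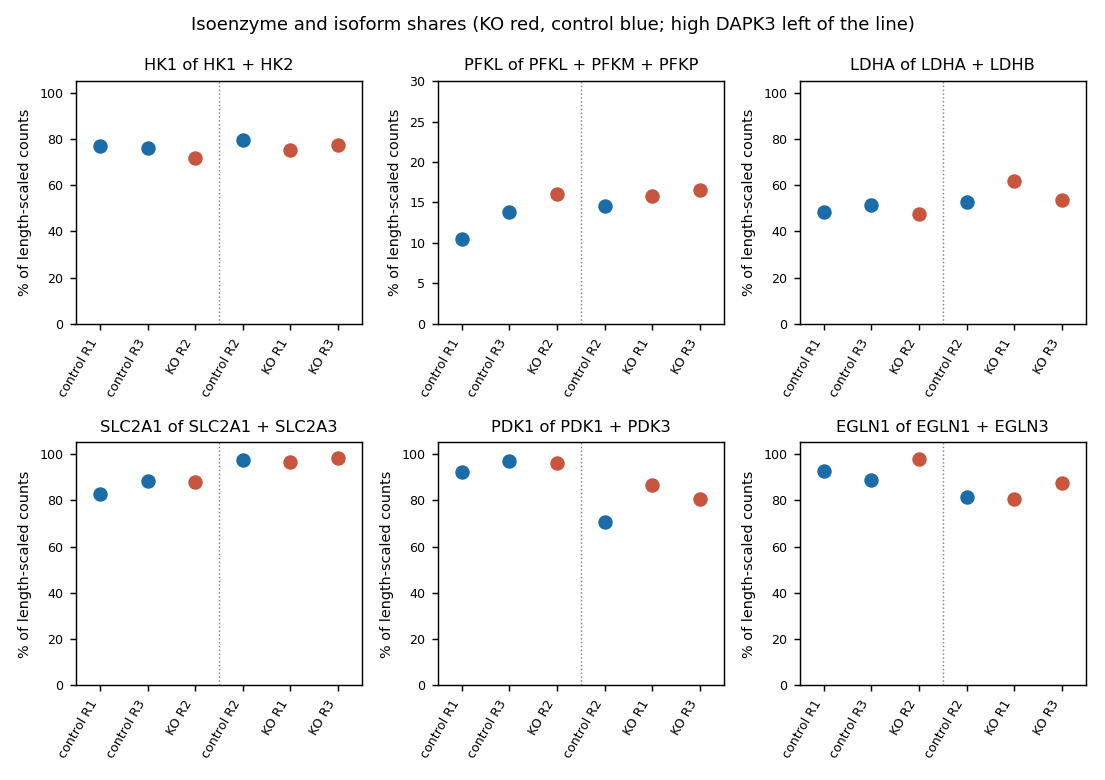
Each panel gives the share of 1 isoenzyme in its family's length-scaled counts, in percent on a vertical axis from 0, with 1 point per library, red for KO and blue for control, and libraries of high DAPK3 RNA left of the dotted line. The PFKL panel has a shorter axis than the rest. PFKL is above 15% in all KO libraries and below it in all controls, and the LDHA, SLC2A1, PDK1 and EGLN1 panels divide at the line.

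Further genes around the pathway were taken from lists chosen from general knowledge. With all 6 libraries edgeR called 0 genes of each list, and the counts below are without the R2 libraries, beside 12.2% of all genes called higher and 15.2% lower. Of 28 further hypoxia targets tested, 2 were called higher and 12 lower, and the median log2 fold change was −0.41. The log2 fold changes were −2.23 for PLOD2, a collagen lysyl hydroxylase, −2.19 for LOXL2, a lysyl oxidase, −1.92 for AK4, a mitochondrial adenylate kinase, and −1.59 for P4HA2, a collagen prolyl hydroxylase (edgeR adjusted p = 0.00083, 0.0016, 0.0037 and 0.00059). All 4 were higher in each library of high DAPK3 RNA than in the others, LOXL2 for instance at 230, 58.5 and 234 CPM under the control label and 36.9, 252 and 65.1 under KO. Their choice by the call largely set this order in the R1 and R3 libraries, as for the called genes named below, and left only the R2 libraries free. Of the 28 tested, 11 were higher and 3 lower where DAPK3 was high, against 22.3% and 21.3% of all genes. Of 8 further glycolysis genes tested, 0 were higher and 2 lower, BPGM, which makes 2,3-bisphosphoglycerate, at −0.98 and PGM2, a phosphopentomutase, at −0.82. PGM2 was higher in each library of high DAPK3 RNA than in the others, and BPGM was lower in every KO library than in any control.

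Of 13 further HIF pathway genes tested, 2 were called in each direction, with EGLN2, another prolyl hydroxylase, at −0.54, VHL, which marks the HIF alpha subunits for destruction, at 0.45 and its partner elongin B (listed as TCEB2) at 0.48. EGLN2, VHL and elongin B did not overlap between the DAPK3 levels, so both R2 libraries went against their label. Among 12 genes of pyruvate dehydrogenase and mitochondrial pyruvate entry, 1 was higher and 2 were lower. PDP1 and PDP2, both phosphatases that reactivate pyruvate dehydrogenase, moved in opposite directions, at −1.52 and 0.50, and DLAT, a subunit of the complex, was at −0.54. PDP1 and PDP2 also did not overlap between the DAPK3 levels, while DLAT was lower in every KO library than in any control. Of 7 pentose phosphate genes tested, 1 was lower, the isomerase RPIA at −0.42. RPIA was higher in each library of high DAPK3 RNA than in the others. Of 11 regulators of glycolysis tested, 4 were higher and 1 lower. TXNIP, which restrains glucose uptake, rose by 2.01 and the related ARRDC4 by 1.82 on the log2 scale (edgeR adjusted p = 0.0073 and 0.00055). TXNIP was at 385, 919 and 162 CPM under the control label and 1126, 592 and 1094 under KO, and ARRDC4 at 11.6, 29 and 9.66 under the control label and 38.4, 22.2 and 37.3 under KO. Both were higher in each library of low DAPK3 RNA than in the others, and control R2 was within the range of the KO libraries. MYC, a transcription factor that drives many glycolytic genes, was at 575, 759 and 416 CPM under the control label and 926, 901 and 922 under KO, without overlap of the labels (log2 fold change without R2 0.89 with an SE of 0.16, edgeR adjusted p = 0.0087).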

How the data were processed

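The authors deposited a table of expected counts, which are unnormalized RSEM estimates for each gene and library, and 9.42% to 10.6% of a library's values carried a fraction. Bowtie2, RSEM and edgeR, with GRCh38, are named in the submitters' processing notes. Versions, annotation and strand handling were not given in the sources used here. Per the labels, the RNA had been treated with DNase and sequenced as mRNA libraries.

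Counts were rounded and tested with edgeR 4.0.16 (R 4.3.3): quasi-likelihood test, TMM factors (0.991 to 1.015), filterByExpr, no block, Benjamini-Hochberg adjustment over all genes tested, called at an adjusted p under 0.05. CPM is the count relative to the library total times its TMM factor, on edgeR's usual scale. Standard errors are the log2 fold change divided by the square root of F. Exons and coordinates are from GENCODE release 29 on GRCh38, which may differ from the authors' annotation, and promoter sequences are RefSeq's (GRCh38.p14). Since strand handling was not given, reads of genes on opposite strands may be mixed, and 16 of the 40 genes have pseudogene rows.

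The genes, the lists and the comparison without both R2 libraries were chosen with earlier results of these data known, and the p-values of that comparison cannot serve as separate evidence on the labels. No library was moved between groups. Fold changes with all 6 libraries were given for genes whose groups did not overlap, and without R2 for called genes and the 2 most expressed uncalled genes per role. Of the further lists, up to 4 called genes were named, largest change first. Alternatives were RLE and library-total scaling, no filter, a CPM filter, DESeq2 1.42.0, limma-voom (limma 3.58.1), the replicate number as a block, the first principal component as a covariate and each library left out. The fit was tested on simulated data. Cell markers of blood, endothelial, stromal and fat lists had summed levels of at most 16.3, 3.07, 49.4 and 0.433 CPM, with PDGFRA alone at 20.4 to 39.2. Of 7 blood markers, 3 divided the libraries by DAPK3 level, PTPRC and CD14 higher and CD68 lower with high DAPK3 RNA. Among all genes tested, 22.3% were higher and 21.3% lower in that way. PTPRC was at 2.92 to 3.28 CPM where DAPK3 was high and 0 to 0.106 where it was low. PLIN1 of the fat list also divided by level, and KDR was lower in every KO library than in any control.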

Additional observations from a re-analysis of the deposited data

How the results depend on the processing

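With all 6 libraries, 0 genes were called by edgeR under each scaling, filter, covariate and left-out library that was run, and by limma-voom, while 510 were higher and 609 lower at an unadjusted p under 0.05. DESeq2 called 114 genes, 1 of them among the 40, and leaving out both R2 libraries gave 4056 and 10. Without the R2 libraries, leaving out a further library gave 2543 to 3700 genes called and 5 to 14 of the 40, lowest without control R1. The median log2 fold change there ran from −0.34 to −0.01 for glycolytic enzymes and from −0.28 to 0.02 for other hypoxia targets. Uncalled genes that changed sign with a left-out library were SLC2A1, from −0.02 to 0.09 (−0.01 without control R1), SLC16A3, from −0.20 to 0.09 (0 without control R3), and NDRG1, from 0 to 0.32. In this comparison 17 values of 6 called genes lost the call under an alternative and 9 values of 5 genes gained it. The causes were not tested.

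Deviations of same-numbered libraries from their group means correlated at −0.68, −0.859 and −0.731 for R1, R2 and R3. On the first principal component each R2 library lay apart from the others of its label, in opposite directions. This alone makes such correlations negative, so they cannot tell whether the replicate numbers pair the libraries. With the number as a block, 0 genes were called with all 6 libraries, and 2702 genes and 7 of the 40 without the R2 libraries, where PFKM (−0.53), SLC16A1 (−0.53) and HIF1A (−0.47) lost the call. A library left alone in its group was assumed to vary like the other group. With 3 libraries per group, or 2 without R2, and as few as 6 counts for PDK3, small changes of low genes are not detectable.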
